A study of Solanum lycopersicum with 17 samples.

Results

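Fruit of tomato lines carrying the iaaM transgene was compared with fruit of lines carrying the rolB transgene. The comparison used 11 of the 17 arrays of the series, 6 of IaaM lines and 5 of RolB lines. It was chosen by the transgene named in the labels: the equal-weight mean of INO-IaaM and DefH9-IaaM was set against the equal-weight mean of INO-RolB and DefH9-RolB, over the 10038 probe sets that are neither array controls nor reporter sequences, of 10209 on the array. INO-IaaM carried iaaM behind the INO promoter and DefH9-IaaM carried it behind the DefH9 promoter, with 3 arrays each. INO-RolB carried rolB behind the INO promoter (3 arrays) and DefH9-RolB carried it behind the DefH9 promoter (2 arrays). Wild-type fruit was hybridized with its seeds (3 arrays) and after its seeds had been taken out by hand (3 arrays). Each array was hybridized with RNA of a pool of 8 fruits, and the submitters state that an array stands for 1 plant. Each construct is represented by 1 line name, so the transgene cannot be told apart from other differences between those lines. Developmental stage, cultivar and the number of independent transformants are not given in the sources used here.

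The gene iaaM comes from a plant-pathogenic bacterium and encodes a tryptophan monooxygenase, whose product, indole-3-acetamide, is a precursor of the auxin indole-3-acetic acid. The gene rolB comes from Agrobacterium rhizogenes and is known for altering how plant cells respond to auxin. INO is an Arabidopsis gene of the outer integument of the ovule, and DefH9 is a snapdragon gene whose promoter is active in placenta and ovules. Auxin made or sensed in the ovule is known to start fruit growth without fertilization. Aux/IAA proteins repress auxin response factors and are degraded when auxin binds its receptor, and several Aux/IAA genes are themselves induced by auxin.

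Before the results, the arrays of both sets differed in measures that do not depend on fruit genes. The hybridization spikes are bacterial and phage RNAs added to every sample in fixed amounts. The difference of BioC and BioB lay between 0.46 and 0.59 on the 6 IaaM arrays, between 1.06 and 1.12 on the 5 RolB arrays and between 0.51 and 0.71 on the 6 wild-type arrays. The IaaM arrays were lower than the RolB arrays by 0.56 on the log2 scale (exact two-sided permutation p = 0.00216, the smallest that 462 splits allow; adjusted p = 0.00812 over 15 measures). Both further sets of BioC and BioB probe sets on the array gave differences of -0.54 and -0.56 with the same p. BioDn minus BioB differed by -0.33 (exact permutation p = 0.00216, adjusted p = 0.00812). Since all RolB arrays lay apart from all other arrays in BioC minus BioB, the handling or spike mix behind it and the transgene cannot be told apart, and this holds for every difference reported here.

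Of the RNA measures, 2 differed as well. The gapdh 5' minus 3' signal averaged -0.95 ± 0.07 (SD, n = 6) in IaaM and -0.84 ± 0.02 (SD, n = 5) in RolB (exact permutation p = 0.0173, adjusted p = 0.0433). The 25S rRNA control probe set was lower in IaaM, at 6.70 ± 0.82 (SD, n = 6) against 7.64 ± 0.42 (SD, n = 5) (exact permutation p = 0.026, adjusted p = 0.0487). Array medians lay between 8.40 and 8.46 on the 11 arrays. The part of these RNA measures in the differences below was not tested beyond a covariate of the 5' minus 3' signal averaged over actin and gapdh. The 25S rRNA signal was not used as a covariate.

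Reporter probe sets gave a check of the lines against wild type. Those with signal had it in both IaaM and RolB lines, so they were not read as a check of the transgene or promoter. On IaaM arrays RPTR-Les-U57609-2_s_at ran from 9.74 to 11.31, on RolB arrays from 7.14 to 9.62, and in wild type it was at most 4.09. On IaaM arrays RPTR-Les-A00196-1_s_at ran from 9.80 to 11.36, and on 4 RolB arrays from 7.82 to 10.83. It was at 3.93 in DefH9-RolB replicate 1, below the highest wild-type array at 4.36. In RPTR-Les-U57609-2_s_at the same array was at 9.48, within the RolB range and above wild type. It therefore stands apart from the other line arrays in RPTR-Les-A00196-1_s_at but not in the other reporter. Results are given with and without it. Across the 17 arrays the remaining 61 reporters ran from 2.45 to 5.49, and levels in this silent range cannot be told from absence. Where a set lies in the silent range its level is only bounded from above, and a difference with both sets in it is not read as a change of the gene.

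**Figure D1:**
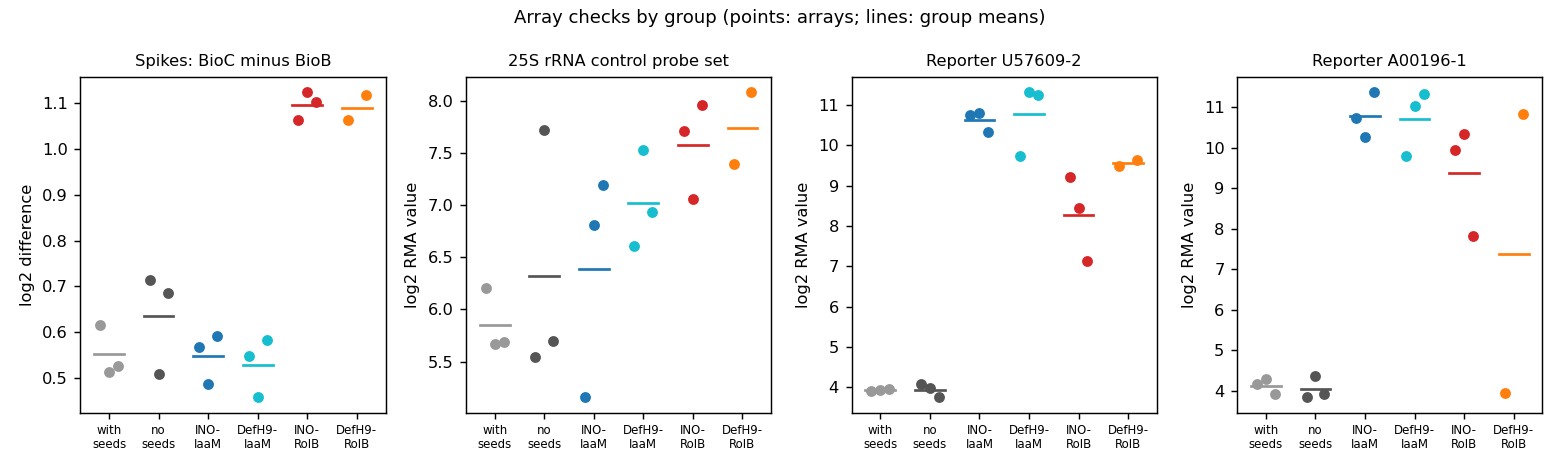
The panels plot, for each array by group, the BioC minus BioB spike difference (log2), the 25S rRNA control probe set and both reporter probe sets with signal in the lines (log2 RMA values); points are arrays and lines are group means. RolB arrays sit at 1.06 to 1.12 in the spike difference, above all other arrays. DefH9-RolB replicate 1 sits at 3.93 in the last panel, at the level of the wild-type arrays, but at 9.48 in the U57609-2 panel, above them.

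The comparison asks whether fruit of the iaaM lines and fruit of the rolB lines differ in their transcripts. Few probe sets were called: limma called 293 of 10038 at an adjusted p of 0.05, or 2.92%. At an unadjusted p under 0.05 there were 1894, and a probe set without a call is not read as unchanged. Of the 293, 98 were higher in IaaM (0.976% of those tested) and 195 were lower in IaaM (1.94%). Of the 41 called differences of at least 1 on the log2 scale, 40 were lower in IaaM and 1 was higher. This balance depended on the scaling: with the arrays centred on their spikes, 128 were called, 111 higher and 17 lower in IaaM. That centring shifts all probe sets of an array alike, and it moved their median difference from 0.01 to 0.39. The spikes themselves differed unequally, BioC by -0.72 and BioDn by -0.50, but BioB by -0.17 and CreX by -0.12. In a separate fit with BioC minus BioB as a covariate, 0 were called (801 at an unadjusted p under 0.05). That covariate nearly coincides with the RolB label, so this fit cannot tell the spike profile and the transgene apart. Among the 293, the median difference was -0.66 for those lower in IaaM and 0.41 for those higher. The 6 IaaM arrays did not overlap the 5 RolB arrays in 297 of all 10038 probe sets (2.96%), with IaaM above in 1.32% and below in 1.64%. Of the 293 called, 153 did not overlap (1.52% of all tested). Without DefH9-RolB replicate 1 the count was 79, with 15 higher and 64 lower in IaaM, and 65 of these were among the 293. In a fit of the 11 line arrays alone it was 116, with 24 higher and 92 lower.

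Each direction was also placed beside wild type, although these comparisons share the wild-type arrays and the wild-type spike profile was close to that of IaaM. Among the 195 probe sets lower in IaaM, the median difference from the seedless control was -0.14 for IaaM and 0.52 for RolB. Among the 98 higher in IaaM it was 0.02 for IaaM and -0.41 for RolB. Against the same control, 37 of the 195 were called for IaaM (background 11.3% of probe sets) and 110 for RolB (background 16.9%). Of the 98, 14 were called for IaaM and 67 for RolB. The differences from wild type thus had their larger median in RolB in both directions. This is a description of probe sets chosen for their difference between the sets.

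**Figure D2:**
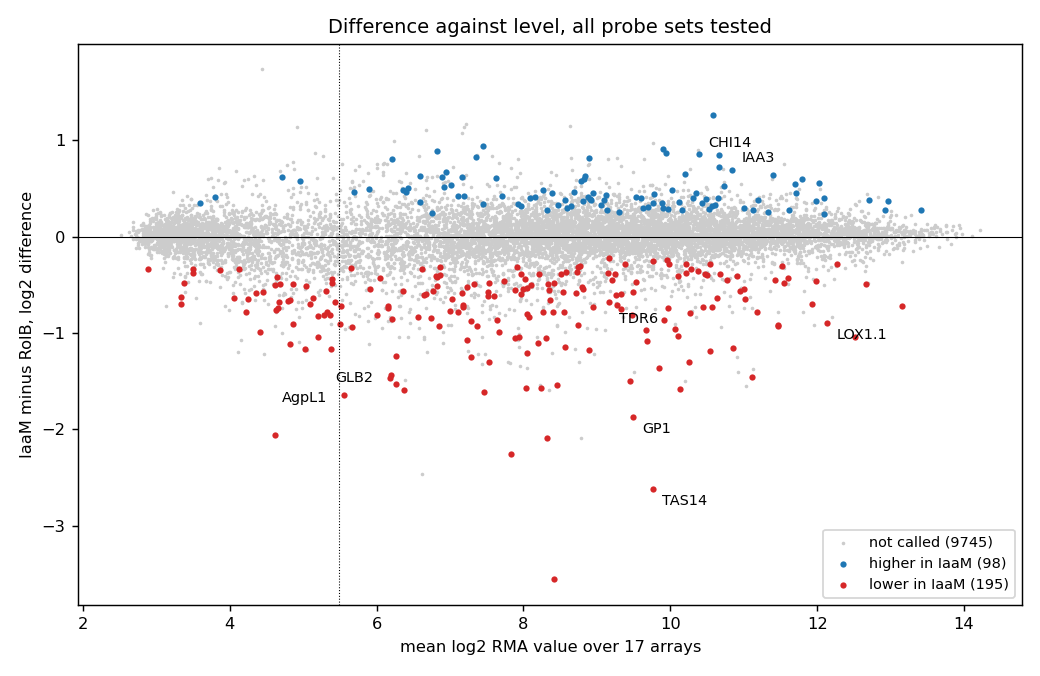
Each point is 1 of 10038 probe sets, with its mean log2 RMA value over 17 arrays on the x axis and the IaaM minus RolB log2 difference on the y axis; the dotted line marks 5.49, the top of the silent range. The 195 probe sets called lower in IaaM (red) reach to -3.56, and the 98 called higher (blue) reach to 1.26.

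Only 909 of the tested probe sets had a gene in the platform annotation, and 31 of these were called (3.41%, against 2.92% over all). In IaaM, 12 were higher and 19 were lower. Of the 31, 16 were named as the largest differences without overlap, 6 as list members and 9 after their values were seen. The call held whichever of the 17 arrays was left out for 6 genes, TAS14, TDR6, ALPHA-DOX2, SPM1, IAA3 and CHI14. Without DefH9-RolB replicate 1, 7 kept it, these 6 and LOC543757. With the arrays centred on their spikes, 11 of the 31 kept the call, 17 lost it and 3 changed sign without a call. Among those that lost it were TDR6 at -0.30 (adjusted p = 0.232), ALPHA-DOX2 at -0.17 (adjusted p = 0.462) and LOX1.1 at -0.51 (adjusted p = 0.119). The gene lists below hold between 1 and 43 genes, and each count of called members stands against the 2.92% called over all probe sets. A single call in a list of this size is not read as a result about the list. A pool of whole fruits was measured, so fewer cells of a type and less RNA per cell cannot be told apart for any of them.

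The Aux/IAA gene IAA3 was higher in IaaM than in RolB. Its values were 10.82, 10.78 and 10.71 in INO-IaaM, 10.82, 11.37 and 10.79 in DefH9-IaaM, 10.08, 9.96 and 10.37 in INO-RolB, and 10.13 and 10.35 in DefH9-RolB. All 6 IaaM arrays were above all 5 RolB arrays. The difference was 0.69 ± 0.11 (SE), a fold of 1.62 (limma, adjusted p = 0.00734), and the adjusted p stayed at or below 0.04 whichever array was left out. IAA3 was lower than wild type with seeds in both sets, by -0.38 in IaaM (adjusted p = 0.0405) and -1.07 in RolB (adjusted p = 9.62e-05). A second, dimmer probe set of IAA3 differed by 0.27 and was not called (adjusted p = 0.468).

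RSI-1, an auxin-induced gene first found in lateral root initiation, was also higher in IaaM, at 13.07 ± 0.17 (SD, n = 6) against 12.72 ± 0.11 (SD, n = 5). The difference was 0.37 ± 0.08 (SE, limma adjusted p = 0.0276), with INO-IaaM replicate 1 at 12.75, inside the RolB range. The call was lost when any of 7 arrays was left out, with adjusted p up to 0.118. The other 7 of the 9 auxin genes were not called. IAA17 gave -0.91 (adjusted p = 0.195), IAA27 -0.36 (adjusted p = 0.273), IAA16 -0.47 (adjusted p = 0.317), ARPI 0.47 (adjusted p = 0.548) and the response factor ARF3 -0.02 (adjusted p = 0.94). IAA16, IAA2 and IAA7 lay within the silent range on all 11 arrays. The median of the 9 was -0.02, against 0.01 over all probe sets.

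No gene of ethylene synthesis (15), ethylene perception and signalling (25) or gibberellin metabolism and response (8) was called, nor the 1 cytokinin or brassinosteroid gene. Medians were 0.04, 0.10, 0.09 and 0.34. ACS4, which encodes the synthase of the ethylene precursor and is known for ripening fruit, gave 0.76 ± 0.23 (SE, limma adjusted p = 0.0957), with IaaM between 11.62 and 12.49 and RolB between 10.84 and 11.69. CTR1, a negative regulator of ethylene signalling, gave 0.24 (adjusted p = 0.141). The gibberellin 3-oxidase gene GA3ox1 gave -0.61 (adjusted p = 0.174) and GAI, of the DELLA repressors, 0.51 (adjusted p = 0.168).

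TAS14 showed the largest difference of any named gene. It encodes a dehydrin, a protein known to accumulate under drought and abscisic acid and in maturing seeds. Its values were 8.99, 9.03 and 7.41 in INO-IaaM, 8.28, 8.95 and 9.50 in DefH9-IaaM, 12.04, 10.09 and 11.39 in INO-RolB, and 11.66 and 11.21 in DefH9-RolB. Every RolB array was above every IaaM array. The IaaM mean was lower by 2.62 ± 0.42 (SE), a fold of 6.13 (limma, adjusted p = 0.00768; at most 0.0406 with any 1 array left out). Wild-type fruit averaged 10.46 ± 0.42 (SD, n = 3) with seeds and 8.70 ± 0.82 (SD, n = 3) without. IaaM differed from the seedless control by -0.00 (adjusted p = 0.995) and RolB by 2.61 (adjusted p = 0.00517). The other 4 of 5 genes of abscisic acid and dehydration were not called. The transcription factor gene AREB1 gave -0.34 (adjusted p = 0.0864) and NCED1, the key enzyme of abscisic acid synthesis, -0.11 (adjusted p = 0.575).

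The haemoglobin gene GLB2 was lower in IaaM, where all 6 arrays lay between 4.77 and 5.10, in the silent range. RolB values were 5.44, 5.07 and 6.11 in INO-RolB and 7.60 and 6.80 in DefH9-RolB, so INO-RolB replicate 2 overlapped IaaM. INO-RolB replicate 1 also lay in the silent range. The fitted difference was -1.47 ± 0.24 (SE, limma adjusted p = 0.00887). It was -1.27 without DefH9-RolB replicate 1 (adjusted p = 0.0507) and -1.30 with no term for the promoter (adjusted p = 0.0703). GLB2 was much higher in wild type with seeds, at 8.99 ± 0.23 (SD, n = 3), than in seedless fruit, at 5.88 ± 0.71 (SD, n = 3). DREB1, a gene of the DRE-binding transcription factors named after its values were seen, averaged 7.83 ± 0.31 (SD, n = 6) in IaaM, 8.57 ± 0.35 (SD, n = 5) in RolB and 10.05 ± 0.16 (SD, n = 3) in seeded wild type. Its difference was -0.78 ± 0.16 (SE, limma adjusted p = 0.0194), and 0.0806 without DefH9-RolB replicate 1.

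TAS14 and GLB2 are among 8 measured genes of a list of seed and embryo markers. They were the 2 of 8 called, where 2.92% of all probe sets were called. Most of the list, including GLB2, AGAL, GolS-1 and gad2, was chosen as already known from these data to be low without seeds. Its higher level in seeded than in seedless wild type is therefore favoured by that choice and is not a separate result. The mean level of the 8 lay between 5.92 and 7.82 on IaaM arrays and between 6.20 and 8.12 on RolB arrays. It lay between 9.95 and 10.56 in seeded wild type and between 6.25 and 7.94 in seedless wild type. By promoter, it ran from 6.10 to 7.82 in INO-IaaM and from 6.20 to 7.38 in INO-RolB. Under DefH9 the lines did not overlap, with 5.92 to 6.27 in DefH9-IaaM and 7.09 to 8.12 in DefH9-RolB. This mean level was not tested. AGAL, an alpha-galactosidase gene, was at 8.35 in INO-IaaM replicate 2 and 7.47 in DefH9-RolB replicate 2 but between 3.17 and 6.10 on the other 9 arrays. GolS-1, for galactinol synthase, was likewise highest on those arrays, at 7.99 and 7.11. AGAL differed by -0.83 (adjusted p = 0.688) and GolS-1 by -0.50 (adjusted p = 0.791). The glutamate decarboxylase gene gad2 gave -0.95 (adjusted p = 0.167). The part of seed tissue in the TAS14, GLB2 and DREB1 differences was not tested. None of 3 ovule and placenta genes, 2 vascular genes or 13 photosynthesis genes was called, with medians of 0.23, 0.01 and 0.04.

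**Figure D3:**
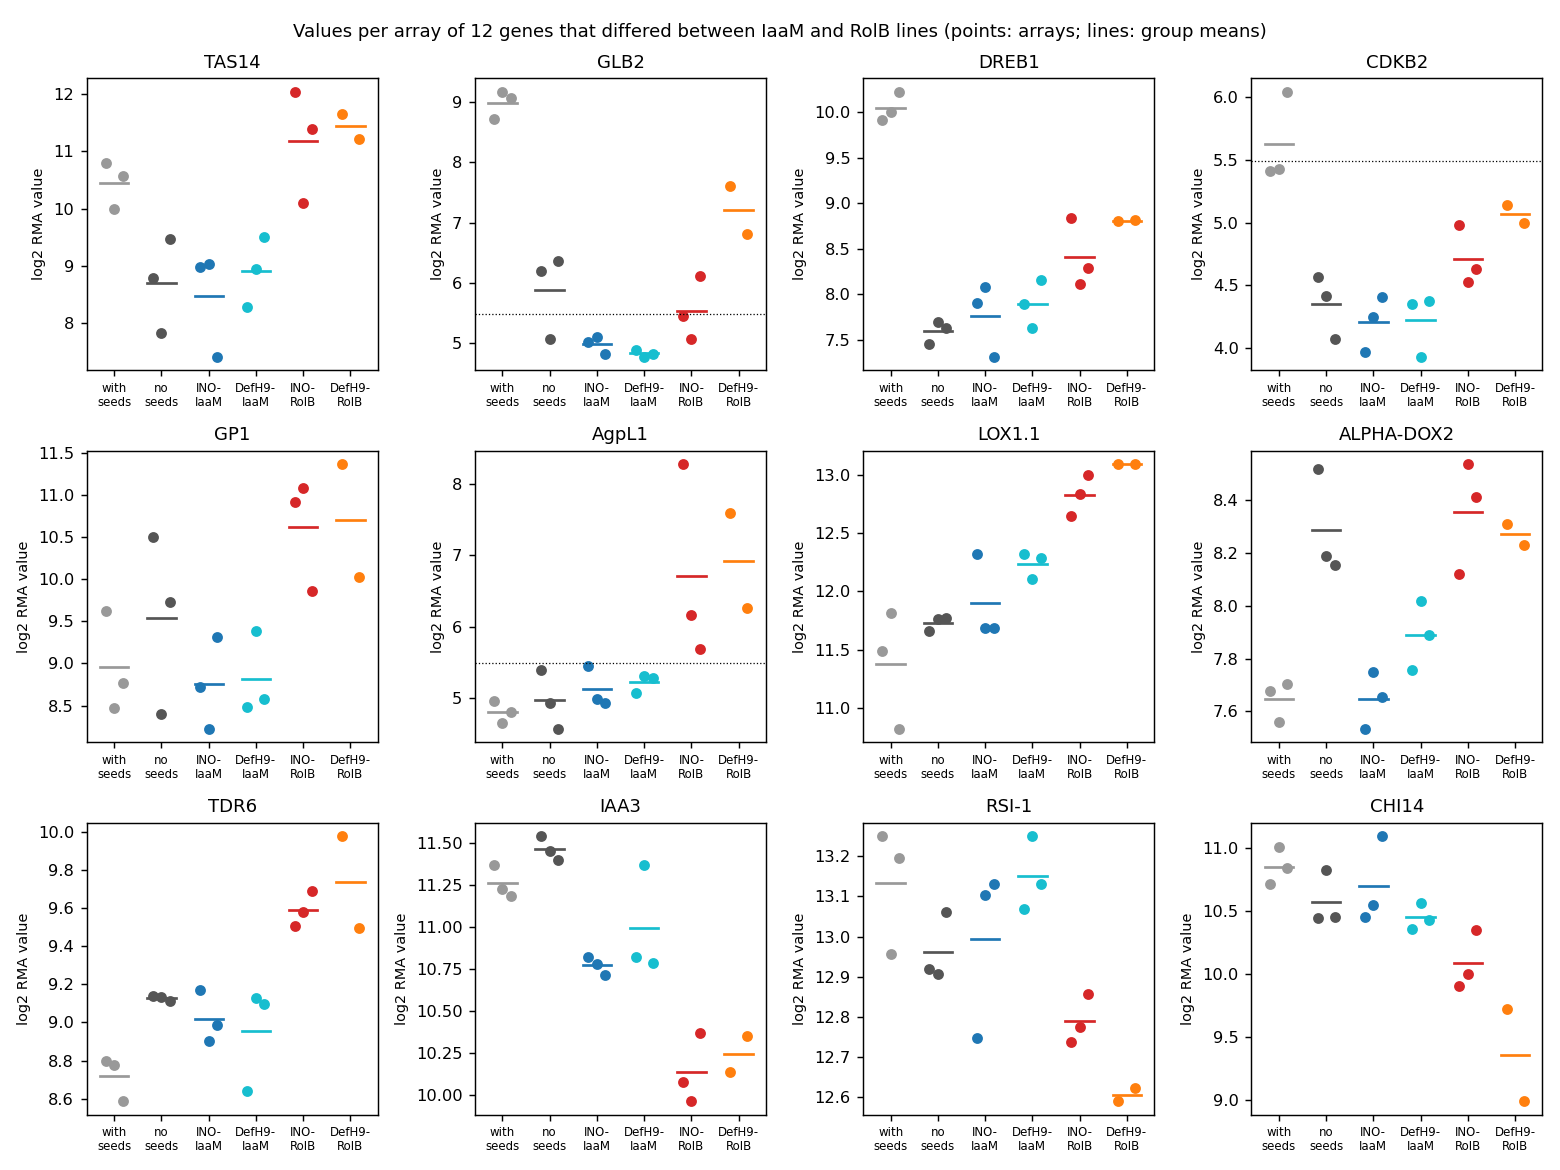
Log2 RMA values of 12 called genes are shown for each array by group (with seeds and no seeds are wild type); points are arrays, lines are group means, and the dotted line marks the top of the silent range at 5.49. RolB arrays are the highest of the 4 lines for TAS14, AgpL1, LOX1.1 and TDR6, and the lowest for IAA3 and CHI14; GLB2 is highest in both DefH9-RolB arrays among the lines.

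Among genes of the cell wall, 2 of 43 were called, both higher in IaaM, where 0.976% of all probe sets were called higher. LOC543515, listed with the synonym LEXYL2, a beta-xylosidase, averaged 10.55 ± 0.29 (SD, n = 6) in IaaM and 9.93 ± 0.31 (SD, n = 5) in RolB, a difference of 0.65 ± 0.15 (SE, limma adjusted p = 0.0353). EXP1, the ripening expansin that loosens cell walls, averaged 13.49 ± 0.10 (SD, n = 6) and 13.23 ± 0.13 (SD, n = 5), a difference of 0.27 ± 0.06 (SE, adjusted p = 0.0377). Both overlapped between the sets, and their calls were lost when any of 8 and 10 arrays was left out. The endoglucanase gene CEL8 gave 0.71 ± 0.18 (SE, adjusted p = 0.0532). The median of the 43 was 0.00.

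GP1, listed with the synonym AroGP1, encodes the non-catalytic beta subunit of fruit polygalacturonase and was not in the cell wall list. IaaM values were 8.73, 8.22 and 9.32 in INO-IaaM and 8.49, 9.39 and 8.58 in DefH9-IaaM. RolB values were 10.91, 11.09 and 9.86 in INO-RolB and 11.37 and 10.03 in DefH9-RolB, above every IaaM array. The difference was -1.87 ± 0.40 (SE, limma adjusted p = 0.0263). Without DefH9-RolB replicate 1 the adjusted p was 0.157, and 5 other arrays also ended the call. PG2, the catalytic polygalacturonase of ripening, gave 0.44 (adjusted p = 0.277).

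In sugar and starch metabolism, 1 of 26 genes was called, near the 2.92% over all probe sets. AgpL1 encodes a large subunit of the pyrophosphorylase that makes ADP-glucose, the precursor of starch. It lay between 4.94 and 5.45 on the 6 IaaM arrays, within the silent range. On RolB arrays it was at 8.28, 6.16 and 5.69 in INO-RolB and 7.58 and 6.26 in DefH9-RolB. All RolB arrays were above all IaaM arrays and above the 6 wild-type arrays, which lay between 4.57 and 5.40. The fitted difference was -1.64 ± 0.38 (SE, limma adjusted p = 0.0362). It was -1.31 without DefH9-RolB replicate 1 (adjusted p = 0.201) and -1.25 without INO-RolB replicate 1 (adjusted p = 0.021). The sucrose phosphate synthase gene SPS gave -0.16 ± 0.05 (SE, adjusted p = 0.0852). GAL83, the beta subunit of the SnRK1 energy-sensing kinase, was 1 of 4 subunit genes called. It averaged 8.18 ± 0.21 (SD, n = 6) in IaaM and 7.70 ± 0.11 (SD, n = 5) in RolB, a difference of 0.49 ± 0.11 (SE, limma adjusted p = 0.0353). The sets overlapped, with the lowest IaaM array at 7.83 and the highest RolB array at 7.89. Its call was lost when any of 9 arrays was left out, and in the fit of the 11 line arrays (limma adjusted p = 0.0699).

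Among genes of lipids and oxylipins, 1 of 17 was called. The lipoxygenase gene LOX1.1 (TomloxA), whose product oxidizes polyunsaturated fatty acids, was at 12.32, 11.69 and 11.69 in INO-IaaM and 12.32, 12.10 and 12.29 in DefH9-IaaM. It was at 12.65, 12.84 and 13.00 in INO-RolB and at 13.09 in both DefH9-RolB arrays, so the sets did not overlap. The difference was -0.89 ± 0.16 (SE, limma adjusted p = 0.0132), and the adjusted p was 0.0596 without DefH9-RolB replicate 1, the only array whose loss ended the call. Genes of jasmonate synthesis were not called: AOC gave -0.46 (adjusted p = 0.097), OPR3 -0.56 (adjusted p = 0.162), loxD -0.72 (adjusted p = 0.241) and AOS -0.96 (adjusted p = 0.359). ALPHA-DOX2, an alpha-dioxygenase of fatty acids that was in none of the lists, averaged 7.77 ± 0.17 (SD, n = 6) in IaaM and 8.32 ± 0.16 (SD, n = 5) in RolB without overlap. Its difference was -0.55 ± 0.09 (SE, adjusted p = 0.00946; at most 0.0486 with any 1 array left out).

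TDR6 (TM6), a B-class floral homeotic gene of the APETALA3 lineage, was the 1 of 9 MADS-box genes called. IaaM arrays lay between 8.64 and 9.17 and RolB arrays between 9.49 and 9.98. The difference was -0.68 ± 0.11 (SE, limma adjusted p = 0.00734; at most 0.0367 with any 1 array left out). Seeded wild type averaged 8.72 ± 0.12 (SD, n = 3) and seedless wild type 9.13 ± 0.02 (SD, n = 3), below every RolB array. The ripening regulator RIN gave 0.25 (adjusted p = 0.289), TAGL1 0.09 (adjusted p = 0.776) and TDR4 0.02 (adjusted p = 0.922).

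CDKB2, a cyclin-dependent kinase gene of mitosis, was the 1 of 15 cell cycle genes called, at -0.68 (adjusted p = 0.029), but all 11 line arrays lay between 3.93 and 5.14, within the silent range. CycA1 gave -0.49 (adjusted p = 0.0603), also within that range, and CDKA1 -0.55 (adjusted p = 0.084), with IaaM between 6.52 and 7.23 and RolB between 6.93 and 7.59.

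CHI14, a chitinase gene, was the 1 of 26 genes of defence and proteinase inhibitors called, and of the 12 called genes with a name that were higher in IaaM it had the largest difference. Its values were 10.46, 10.55 and 11.09 in INO-IaaM, 10.36, 10.57 and 10.42 in DefH9-IaaM, 9.90, 10.00 and 10.35 in INO-RolB, and 9.72 and 8.99 in DefH9-RolB. The sets did not overlap, although the lowest IaaM and the highest RolB array nearly met. The difference was 0.86 ± 0.15 (SE, limma adjusted p = 0.012; at most 0.0361 with any 1 array left out). IaaM differed from the seedless control by 0.00 (adjusted p = 0.993) and RolB by -0.85 (adjusted p = 0.00841). All 3 heat shock genes had negative differences without a call: HSP17.4 at -1.40 (adjusted p = 0.158), vis1 at -2.46 (adjusted p = 0.167) and HSP21 at -0.79 (adjusted p = 0.197). INO-RolB replicate 1 and DefH9-RolB replicate 1 held the highest vis1 values, 10.15 and 10.70, against 4.58 to 7.25 on the other 9 line arrays.

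Smaller differences were called for genes of several roles. DHAR1, the dehydroascorbate reductase of ascorbate recycling and 1 of 12 antioxidant genes called, averaged 12.13 ± 0.05 (SD, n = 6) in IaaM and 12.41 ± 0.04 (SD, n = 5) in RolB without overlap (-0.29 ± 0.05 SE, limma adjusted p = 0.0146). LKT1, an inward potassium channel and 1 of 18 transport genes called, gave -0.68 (limma adjusted p = 0.0391). All its IaaM arrays were at or below 5.44, in the silent range, as were RolB arrays at 5.32 and 5.48. The sets overlapped for LKT1, and its call was lost when any of 9 arrays was left out. The bZIP factor gene vsf-1 gave 0.40 (adjusted p = 0.0194) and CLB1 0.30 (adjusted p = 0.023), both without overlap. The histidine decarboxylase-like gene hdc gave 0.27 (adjusted p = 0.0222) without overlap. SPM1 gave -0.34 (adjusted p = 0.00946), the small modifier gene sumo -0.28 (adjusted p = 0.045) and LOC543757 -0.88 (adjusted p = 0.0158), also without overlap. The sumo call was lost when any of 16 arrays was left out, and in the fit of the 11 line arrays (limma adjusted p = 0.112). A second probe set of LOC543757, with a mean in the silent range, gave -0.66 (adjusted p = 0.0633), and a second one of DHAR1 gave -0.20 (adjusted p = 0.193). When the arrays were centred on their spikes, which moved the median of all probe sets to 0.39, the differences of SPM1, DHAR1 and sumo turned positive and none of these 3 was called.

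Chosen after their values were seen, 8 further genes beside DREB1 complete the 31. LOC778302 gave -0.96, rnalx (ribonuclease LX) -0.79, NITF -0.55, LOC544256 -0.50 and RAB1B (a small GTPase of vesicle transport) -0.39. The riboflavin synthesis gene ribA gave 0.28, LOC543561 0.49 and LOC543604 0.60. Their adjusted p-values lay between 0.0136 (RAB1B) and 0.0469 (LOC544256), all 8 overlapped between the sets, and each lost its call without DefH9-RolB replicate 1.

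**Figure D4:**
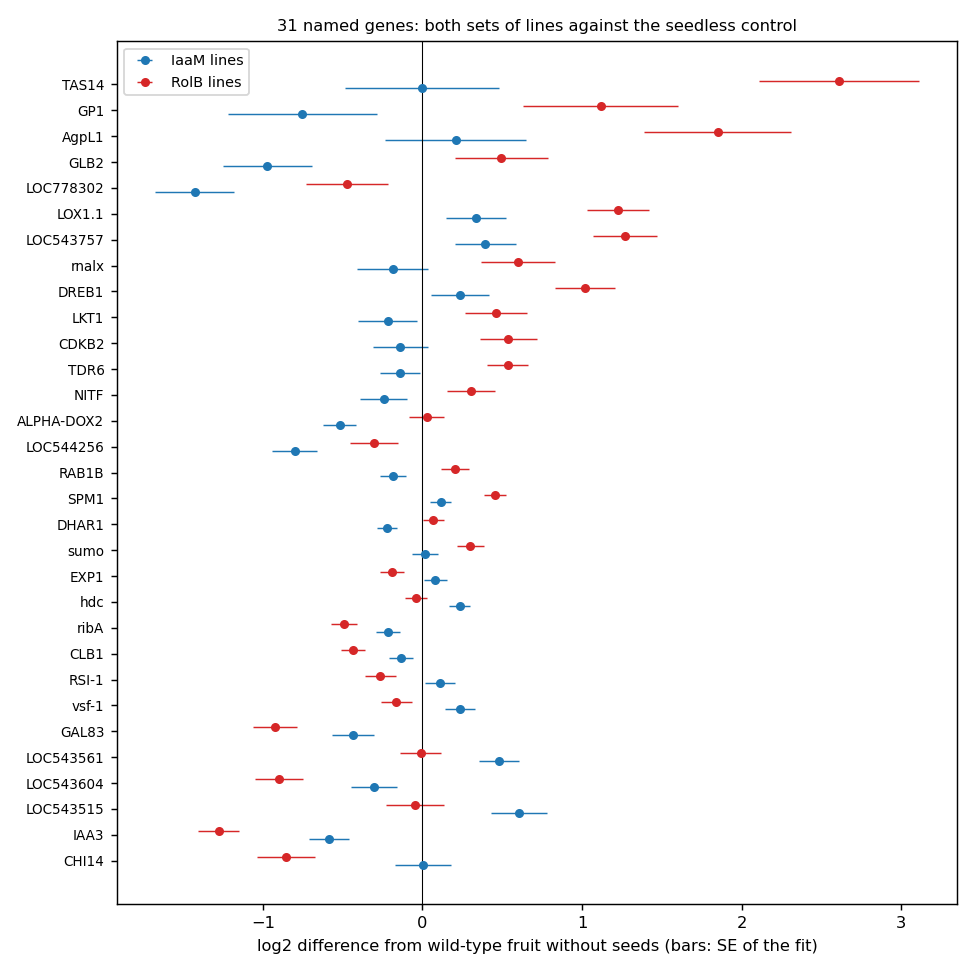
For the 31 named genes, points give the fitted log2 difference of the IaaM lines (blue) and of the RolB lines (red) from wild-type fruit without seeds, with bars for the SE of the fit; both use the same 3 control arrays. TAS14 is at 2.61 for RolB and close to 0 for IaaM, and IAA3 is below 0 in both sets, at -1.28 for RolB and -0.58 for IaaM.

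No member was called in 13 of the 25 gene lists. Beyond those above, these were carotenoids and isoprenoids (16 genes, median 0.11), phenylpropanoids and flavonoids (8 genes, median -0.07), organic acids and central carbon (8 genes, median 0.10), nitrogen, GABA and polyamines (22 genes, median -0.02) and 14-3-3 proteins (7 genes, median 0.06).

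The largest called difference in each direction belonged to a probe set with no gene in the annotation used here, and the 2 largest such probe sets in each direction are given. LesAffx.70764.1.S1_at lay between 7.04 and 7.61 on IaaM arrays and at 8.20, 10.28 and 11.84 in INO-RolB and 11.43 and 11.92 in DefH9-RolB. Its difference was -3.56 ± 0.45 (SE, limma adjusted p = 0.0029), a fold of 11.8, and wild-type arrays lay between 7.16 and 7.75. Les.3436.2.S1_a_at gave -2.26 ± 0.23 (SE, adjusted p = 0.00175), with IaaM between 6.96 and 8.02 and RolB between 8.92 and 10.26. In the other direction, Les.5579.1.S1_at gave 1.26 ± 0.22 (SE, adjusted p = 0.0105), with overlap, and Les.4355.1.S1_at gave 0.94 ± 0.17 (SE, adjusted p = 0.0131), without.

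The transgenes were then compared within each promoter. Between INO-IaaM and INO-RolB, limma called 0 of 10038 probe sets (0%; 1086 at an unadjusted p under 0.05, and 1 with array weights). Between DefH9-IaaM and DefH9-RolB it called 40 (0.398%), 12 higher and 28 lower in IaaM, of which 39 were among the 293. GLB2 was the only named gene among the 40, at -2.37 under DefH9 (adjusted p = 0.0151) against -0.56 under INO (adjusted p = 0.591). The count under DefH9 was 9 without DefH9-RolB replicate 1, none of them among the 40, and 21 when the other DefH9-RolB array was the one left out, 9 of them among the 40. In these fits the lone DefH9-RolB array was assumed to vary like the other groups. Leaving out replicate 1 of DefH9-IaaM gave 16 and leaving out its replicate 3 gave 5.

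Whether the transgene difference itself depended on the promoter was tested by the interaction. It called 0 of 10038 probe sets (0%; limma, smallest adjusted p = 0.998, 383 at an unadjusted p under 0.05). It called 5 without DefH9-RolB replicate 1 and 1 without INO-IaaM replicate 2. All 293 probe sets had the same sign under both promoters, a count that the choice of probe sets favours. The 3 INO-IaaM arrays did not overlap the 3 INO-RolB arrays in 25 of the 31 named genes (16.2% of all probe sets), and the DefH9 arrays did not overlap in 30 (28.3% of all). Both counts are favoured by the choice of genes on these same arrays. For 16 of the 31, no overlap between all IaaM and all RolB arrays fixed the outcome under each promoter. The counts are therefore not read as agreement between the promoters.

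**Figure D5:**
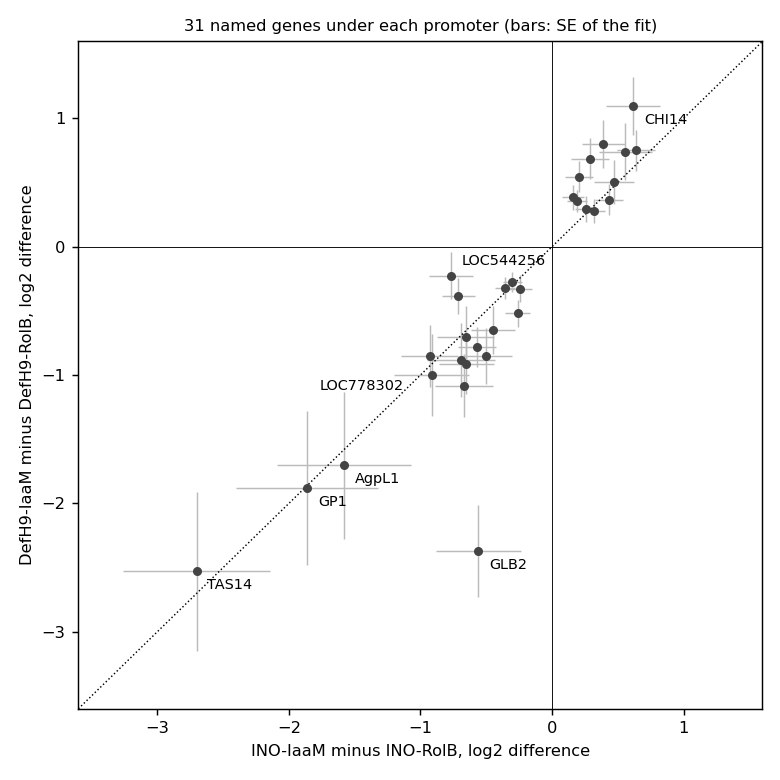
Each point is 1 of the 31 named genes, with its IaaM minus RolB log2 difference under the INO promoter on the x axis and under the DefH9 promoter on the y axis; bars are the SE of the fit and the dotted line marks equal differences. TAS14 lies near the line at -2.70 and -2.53, and GLB2 lies off it at -0.56 and -2.37.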

How the data were processed

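The authors deposited log2 RMA values, 1 per probe set and array; RMA is named in the submitters' processing notes, with no version, and their range is that of a log2 scale. Scanner files were not used here. The platform annotation gave 1 gene for 909 of the 10038 tested probe sets (803 genes), several for 0 and none for 9129. Symbols were updated through RefSeq (assembly SLM_r2.1) by gene number, which matched 885 of the 909. No sequence or genome coordinate is given, since the array values name no build.

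One mean per group was fitted over all 17 arrays with limma 3.58.1 in R 4.3.3 (11 residual degrees of freedom, prior 2.56), with Benjamini-Hochberg adjustment over 10038 probe sets and a threshold of 0.05. Differences are of log2 values with the SE of the fit. For array measures, exact permutation tests (two-sided) were adjusted over 15. For lists, the probe set of highest mean stood for each gene. Named genes were called probe sets with 1 gene: up to 15 of the largest in each direction without overlap, up to 3 per list by p, up to 6 that pass the interaction (none did), and the 2 largest unnamed in each direction; other list members are given by value where under 4 of a list were called. The comparison, members and lists were chosen with earlier results of these data known. Of 67, 67 and 66 simulated differences of 0.5, 1 and 2, the fit called 43, 60 and 64, with 12 unchanged probe sets called. The simulated noise was independent between probe sets and arrays and held no spike difference. These counts therefore check the fit and do not give the error rate in the real arrays. Correlations within groups lay between 0.986 and 0.995. The number of arrays limits precision. As far as the labels say, arrays are separate plants and pools. Alternatives were other samples, scalings, filters, weights, variance models, thresholds, covariates, a replicate block and leaving out each array. Python 3.11.15 with pandas 2.3.3 and matplotlib 3.10.9 made tables and figures.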

Additional observations from a re-analysis of the deposited data

Results flagged for a closer look

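Among 96 sets of values checked for a single array far from the rest (Dixon's test, which flags about 1 in 20 by chance), 4 were found. IAA3 was at 11.37 in DefH9-IaaM replicate 2, with the next IaaM array at 10.82. CHI14 was at 11.09 in INO-IaaM replicate 3, with the next at 10.57. RSI-1 was at 12.75 in INO-IaaM replicate 1, with the next at 13.07. LOC544256 was at 7.91 in INO-RolB replicate 2, with the next RolB array at 7.57.

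Reporter probe sets, which the comparison leaves out, had signal in the lines above wild type. RPTR-Les-A00196-1_s_at averaged 9.76 over the 11 line arrays against at most 4.36 in wild type, with DefH9-RolB replicate 1 at 3.93. RPTR-Les-U57609-2_s_at averaged 9.82 against at most 4.09, with DefH9-RolB replicate 1 at 9.48. The latter averaged 10.69 ± 0.59 (SD, n = 6) in IaaM and 8.78 ± 1.02 (SD, n = 5) in RolB.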

How the results depend on the processing

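The count of 293 for IaaM minus RolB moved with several settings. With BioC minus BioB as a covariate it was 0 (0 higher, 0 lower, 801 at an unadjusted p under 0.05), a covariate that nearly coincides with the RolB label. Centring on the spikes gave 128, with 111 higher and 17 lower, so the share higher in IaaM went from 33.4% to 86.7%. The same shift moved the median difference of all probe sets from 0.01 to 0.39. The fit of the 11 line arrays gave 116 (24 higher, 92 lower), array weights 496 (193 higher, 303 lower), an adjusted p of 0.01 gave 45 (11 and 34) and a difference of at least 1 gave 41 (1 and 40). Other scalings, filters, variance models and the 5' minus 3' covariate gave 224 to 315. Leaving out 1 array gave 79 (without DefH9-RolB replicate 1) to 330, with 15 to 129 higher and 64 to 201 lower. It was also smaller by over 1.5 times without INO-IaaM replicate 2 (150), DefH9-IaaM replicate 1 (181), DefH9-IaaM replicate 3 (171) and INO-RolB replicate 2 (173).

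Replicate numbers were not taken to pair the arrays. Of 15 same-number pairs of line arrays, 4 had deviations correlated above 0.1, with a range of -0.37 to 0.45, against -0.45 to 0.39 in other pairs. Deviations from a group mean cancel within each small group, so these correlations cannot tell whether arrays of the same number share an effect. The replicate block gave 239. Added after seeing the data, the block with only the 11 line arrays gave 64 (9 higher, 55 lower), and 1 under INO and 2 under DefH9. Under INO the count of 0 became 1 with array weights, 2 with the 5' minus 3' covariate, and 0 to 5 with 1 array left out. Under DefH9 the count of 40 became 8 with the 11 line arrays, 15 with spike centring, 1 with the spike covariate, 24 without the lowest 30 percent of probe sets, 0 at an adjusted p of 0.01, 21 with a difference of at least 1, and 5 to 51 with 1 array left out. For the interaction, 0 became 0 to 5 with 1 array left out.

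Of the 31 named genes, 13 kept the call with the 11 line arrays, 21 with the 5' minus 3' covariate, 11 with spike centring, 3 with the block on the 11 line arrays and 0 with the spike covariate. The sign turned for GP1 (1.06) and rnalx (0.67) with the spike covariate, and for SPM1 (0.038), DHAR1 (0.089) and sumo (0.093) with spike centring. Spike centring moved every difference by the same amount, so the sign turns under it follow from that shift. The cause of the other changes was not tested. The BioC minus BioB difference stayed between -0.57 and -0.54 with 1 array left out. Counting all probe sets of each gene changed no list's count of calls. Probe sets within the silent range, 21 of the 293, have no readable difference.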
